A study of Mus musculus with 12 samples.

Results

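The ribosome of the cytosol is built from ribosomal RNA and many different proteins, and each ribosomal protein gene supplies a component of the large (Rpl names) or the small (Rps names) subunit. The genes described here were protein-coding genes of mouse whole kidney whose symbol is Rpl or Rps followed by a digit, or Rplp0, Rplp1, Rplp2 or Rpsa, without kinases named Rps6k and without pseudogenes, and with a mean of at least 5 CPM, the usual count scaled to library size, over the 12 libraries. Of 38924 gene IDs in the count tables, 86 protein-coding genes matched the names and 60 passed the minimum, 36 with large-subunit and 24 with small-subunit names. The minimum was set on the mean of all libraries, with counts divided by total gene counts. The group means below use CPM with TMM scaling, which adds a factor per library. On that scale Rpl31 lay under 5 CPM at ZT4. Its group means were 4.88 and 4.87 CPM at ZT4 and 7.46 and 7.61 CPM at ZT16 in WT and KO. The other members had at least 5 CPM in each group on that scale. Rps19bp1 matches the name rule but encodes a protein that binds a ribosomal protein, and Rpl7l1, Rpl22l1, Rpl36al, Rps27l and Rps27rt are like-named copies of other ribosomal protein genes.

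RNA from whole kidneys was sequenced in 4 groups of 3 libraries, wild type (WT) and knockout (KO) at zeitgeber time 4 (ZT4, in the light phase) and at ZT16 (in the dark phase) of a 12 h light and 12 h dark cycle. KO mice were Bmal1lox/lox/Pax8-rtTA/LC1 animals, in which doxycycline lets the Pax8-driven activator switch on the LC1 Cre transgene in renal tubule cells, and Cre then cuts the loxP-flanked Arntl gene that encodes the clock transcription factor BMAL1. Doxycycline was given at 2 mg/ml in the drinking water for 2 weeks from 8 weeks of age, on a C57BL/6J background and standard chow. This treatment is listed alike for the WT and KO libraries, without a separate statement for WT mice. WT mice were littermates, for which the labels do not give the alleles they carried, and the sex of the mice is not given. Cells of the kidney outside the tubule keep Arntl in this model, and the whole kidney holds both kinds of cells. Whether each library is a different mouse is not stated, and the p-values cover only library-to-library spread, some of which may be technical. The series asked what the loss of BMAL1 from the tubule changes in kidney expression at each time.

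Ribosomal proteins are made in matching amounts, and most cells hold their mRNAs at high and steady levels. Most mammalian ribosomal protein mRNAs begin with a C followed by a run of pyrimidines, the 5′ terminal oligopyrimidine (TOP) tract, through which mTOR and the RNA-binding protein LARP1 control their translation. In liver the feeding rhythm and the clock are known to drive ribosome production toward the active phase, which for mice is the dark. BMAL1 acts with CLOCK at E-boxes, and CACGTG is the canonical one.

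The starts of 45 of the 60 genes were present in a RefSeq table of promoters on GRCm38.p6, from 250 bases before to 50 bases after each annotated start. A C followed by at least 4 pyrimidines stood exactly at an annotated start in 9 of the 45 (20%), against 3.01% of the 27025 genes in the table, and began within 5 bases of a start in 23 (51.1%), against 21.2%. These 30-base windows show the tract in capitals, with the annotated start at the first capital, for a gene with a long tract (Rpl15), for members that the results below turn on (Rps15a, Rplp2, Rpl14) and for an intronless copy of Rps27 (Rps27rt).
Rpl15, chr14:18270972-18271001, minus strand: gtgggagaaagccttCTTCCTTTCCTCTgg
Rps15a, chr7:118116133-118116162, minus strand: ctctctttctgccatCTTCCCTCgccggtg
Rplp2, chr7:141447636-141447665, plus strand: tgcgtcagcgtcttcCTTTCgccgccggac
Rpl14, chr9:120571502-120571531, plus strand: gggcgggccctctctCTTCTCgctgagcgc
Rps27rt, chr9:114982725-114982754, minus strand: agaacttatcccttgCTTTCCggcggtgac

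The E-box CACGTG, which reads the same on both strands, occurred in the promoter window of 6 of the 45 genes (13.3%), against 8.09% of all genes in the table and 11.3% of the 11034 tested protein-coding genes that it holds. The 6 were Rpl13a, Rpl14, Rpl19, Rpl23, Rpl34 and Rps19. The 3 windows below, with the motif in capitals, show its surroundings where it lay nearest to a start (Rpl23 and Rpl19) and in Rpl14, the gene that stands apart in the time comparison.
Rpl23, chr11:97782425-97782454, minus strand: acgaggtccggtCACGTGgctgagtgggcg
Rpl19, chr11:98026679-98026708, plus strand: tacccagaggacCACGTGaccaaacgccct
Rpl14, chr9:120571337-120571366, plus strand: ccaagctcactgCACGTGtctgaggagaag
A match is a description of these letters and says nothing of binding. The motif CCGGAAG, the core of ETS-family sites, occurred in 42.2% of the 45 windows on either strand, against 9.93% of all genes and 18.3% of tested protein-coding genes. The GC box GGGCGG occurred in 68.9%, against 38.2% and 66.2%.

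Mammalian genomes carry many processed pseudogenes of ribosomal protein genes, and a read that fits a gene and its copy equally well is not unique. The deposited tables put such alignments on a line of their own, outside the genes. They held 235 further genes of these names that are pseudogenes by name or annotation or are non-coding, and 39 of them reached 5 CPM. Their mean CPM summed to 1814, against 4960 for the 60 members. Read counts, not divided by gene length, favoured the copy in several cases: Rpl10a-ps1 had a mean of 148 CPM and Rpl10a 10.3, and Rps6-ps4 had 75.3 CPM and Rps6 2.88. The 26 matching genes under the minimum included well-known components such as Rps6, the target of S6 kinase, and Rpl11 (3.11 CPM), which with Rpl5 holds the p53 regulator MDM2, and Rps27 (0.379 CPM). Rpl37 (4.89 CPM) and Rps27a (4.67 CPM) lay just under the minimum, and Rpl31 (6.07 CPM) and Rpl9 (6.48 CPM) just above it. The count of a member thus leaves out reads that were not unique, and its level is uncertain. Rpl13a also shares 29.4% of its exonic bases with Gm45713 on the same strand, Rpl31 25.3% with Tbc1d8, Rpl5 24.3% with Fam69a and Rps25 17.2% with Trappc4, and several members hold snoRNA genes in their annotated exons.

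The libraries held 25628887 to 38043491 counts assigned to genes, and the 60 members together took 0.406% to 0.683% of them. KO ZT16 replicate 2 stood apart from the other libraries in the level of the members, and from its group partners in further measures. It was the highest library for 51 of the 60 members, against 23.6% of all 16150 tested genes, and its median member lay 0.82 above the 12-library mean on the log2 CPM scale, where KO ZT16 replicates 4 and 6 lay at -0.07 and -0.14. The share of counts on mitochondrially encoded genes was 22.3% in that library and 14.1% and 14.0% in its group partners, and alignments that were not unique made up 43.0%, against 34.0% and 33.3%. WT ZT16 replicate 5 was close to it in both shares, at 22.4% and 41.8%. Proximal tubule markers (7 genes) summed to 8287 CPM in KO ZT16 replicate 2 and to 10620 and 10580 CPM in replicates 4 and 6. Erythroid markers (5 genes) summed to 494, 247 and 175 CPM. No other library was as low in the proximal tubule sum, while WT ZT4 replicate 1 reached 452 CPM of erythroid markers. Results that rest on this library are given with and without it, and the part of these measures in them was not tested. Arntl does not check the labels: its counts over the whole gene spanned 13.8 to 20.01 CPM in WT and 14.4 to 16.2 CPM in KO at ZT4, the deleted part is not stated, and a fitted log2 difference of -0.08 became 0.10 with scaling by total counts. At ZT16 Arntl ran against the knockout label, with 8.63 to 11.03 CPM in WT and 12.3 to 15.01 CPM in KO, every KO library being higher. The log2 difference there was 0.43 ± 0.15 (SE, adjusted p = 0.15), and 0.49 (adjusted p = 0.024) without KO ZT16 replicate 2. The genotypes below are therefore those of the labels.

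**Figure D1:**
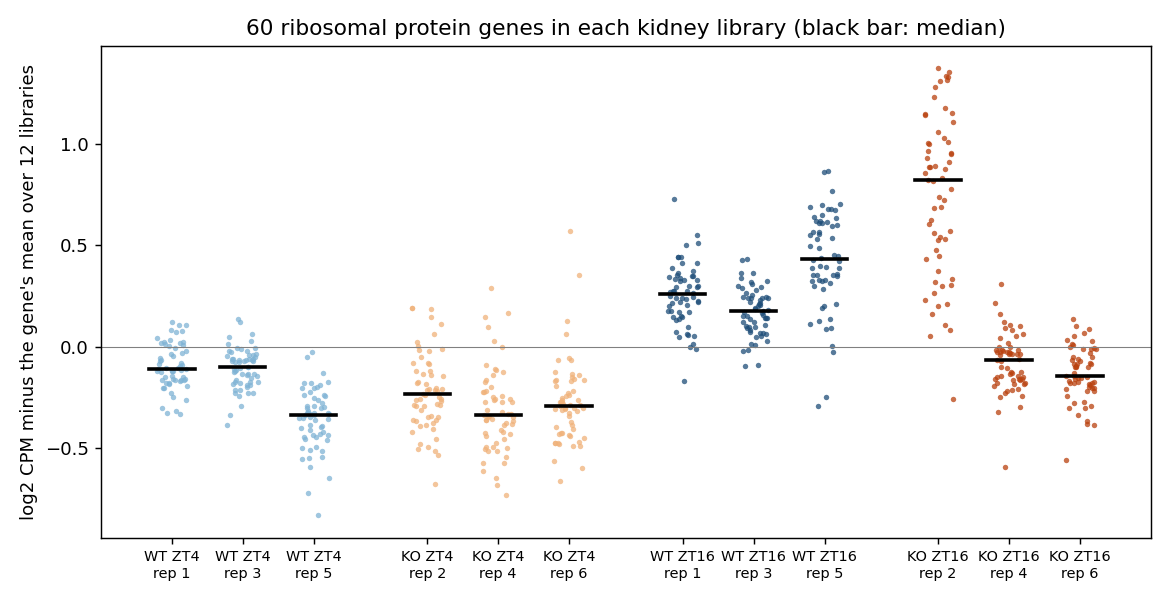
Each point is 1 of 60 ribosomal protein genes in 1 of 12 libraries, on the y axis as log2 CPM minus the mean of the gene over the 12 libraries, and each black bar is the median of a library. The WT ZT16 bars lie at 0.17 to 0.43 above the WT ZT4 bars at -0.34 to -0.10, and KO ZT16 replicate 2 lies at 0.82 while KO ZT16 replicates 4 and 6 lie at -0.07 and -0.14.

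In WT kidney, ribosomal protein mRNAs were higher at ZT16, in the dark, than at ZT4. The fitted log2 difference was positive for 59 of 60 members, with a median of 0.44, against a median of -0.01 over all tested genes. In 51 of 60 members every ZT16 library lay above every ZT4 library, against 21.3% of all tested genes, and in no member did every ZT16 library lie below. The members share these libraries and are not separate checks. Rpl31, whose TMM-scaled group means lay under the minimum at ZT4, is 1 of the 51. Among the 9 members whose libraries overlapped were Rpl14, Rpl27a, Rpl32, Rpl41, Rpl7a, Rplp2, Rps2 and Rps25. As a share of counts the members went from 0.442% ± 0.032 (SD, n = 3) at ZT4 to 0.529% ± 0.012 (SD, n = 3) at ZT16. In whole tissue, more RNA per cell and more cells of a type that makes it cannot be told apart.

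Few single members passed the test with all libraries in the fit, and most did once KO ZT16 replicate 2 was left out. With edgeR's quasi-likelihood test over all 12 libraries, Rpl10 and Rpl10a rose at ZT16 in WT at an adjusted p under 0.05 and none fell, against 2.87% of all tested genes called higher. An unadjusted p under 0.05 was reached by 33 of 60, against 29.3% of all genes. DESeq2 called 8, against 5.94% of all genes called higher, and limma voom 2, against 2.89%. KO ZT16 replicate 2 lies outside this comparison and enters it through the low-count filter, the scaling and the shared estimate of spread. Without it 50 of 60 rose, against 17.5% of all genes, at nearly the same median (0.45). In a fit of the 6 WT libraries alone 46 rose, against 11.6%. Leaving out WT ZT4 replicate 3 or WT ZT16 replicate 5 left 1 call, and leaving out WT ZT4 replicate 5 or WT ZT16 replicate 1 left 0, with 1.34% to 3.79% of all genes called in these 4 fits. With scaling by total gene counts only, which moves the median of all genes to -0.19, the median of the members was 0.26, 56 were positive and 0 were called; relative to all genes the difference was 0.45 both ways.

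Rpl10 (chrX:74270812-74273135), whose protein completes the large subunit in its last step of maturation, had 7.29, 7.07 and 5.82 CPM in WT ZT4 replicates 1, 3 and 5 and 10.2, 9.16 and 10.1 CPM in the same-numbered WT ZT16 libraries. The ZT16 libraries were all higher, by a log2 difference of 0.55 ± 0.12 (SE, adjusted p = 0.023). Rpl10a (chr17:28328471-28331033), a large-subunit protein next to the tRNA exit site, had 8.51, 7.82 and 8.33 CPM at ZT4 and 13.0, 12.2 and 11.7 CPM at ZT16. These groups were also apart, and the log2 difference was 0.58 ± 0.12 (SE, adjusted p = 0.015). Rpl10a is the parent of the pseudogene Rpl10a-ps1 named above, so reads could be split between them.

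Of the other 58 members, 49 had a wider fitted error than both of these genes, and 39 had a smaller and 19 a larger difference than both. Rplp1 (chr9:61913284-61914542), an acidic protein of the lateral stalk that recruits elongation factors, had 176, 175 and 140 CPM in WT at ZT4 and 247, 233 and 316 CPM at ZT16. The ZT16 libraries all lay above those of ZT4, and the log2 difference of 0.70 carried an SE of 0.29 (adjusted p = 0.14), against 0.71 ± 0.11 (SE, adjusted p = 6.4e-04) without KO ZT16 replicate 2. Rplp0, the base of that stalk, had 290, 278 and 242 CPM at ZT4 and 334, 321 and 360 CPM at ZT16, again without overlap. Its log2 difference was 0.33 ± 0.11 (SE, adjusted p = 0.093). Rplp2, the partner of Rplp1, had 8.78, 9.13 and 7.97 CPM at ZT4 and 10.8, 10.5 and 8.25 CPM at ZT16, and WT ZT16 replicate 5 lay within the ZT4 range.

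Among small-subunit genes, Rps15a (chr7:118104372-118116188) had one of the largest WT differences: 36.3, 41.3 and 30.02 CPM at ZT4 and 56.9, 55.6 and 82.2 CPM at ZT16. The log2 difference of 0.86 ± 0.35 (SE) had an adjusted p of 0.14, and WT ZT16 replicate 5 was the highest of these 6 libraries. Rpsa, the small-subunit protein also known as the laminin receptor precursor, had 116, 109 and 88.8 CPM at ZT4 and 126, 136 and 175 CPM at ZT16. Its 2 groups did not overlap, at a log2 difference of 0.48 ± 0.25 (SE, adjusted p = 0.21). Rps27l, a p53-induced copy of Rps27, had 104, 115 and 79.8 CPM at ZT4 and 153, 158 and 213 CPM at ZT16, a log2 difference of 0.81 ± 0.34 (SE, adjusted p = 0.14). Rps15a, Rps2, Rpl14 and Rpl8 were picked for description after their values were seen.

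Copies and other small-subunit genes gave the same picture. Rps27rt, the intronless copy of Rps27, had 40.2, 42.3 and 27.9 CPM in WT at ZT4 and 70.3, 57.0 and 74.98 CPM at ZT16. Rpl22l1, a copy of Rpl22, had 11.7, 12.7 and 9.87 CPM at ZT4 and 14.9, 16.4 and 21.1 CPM at ZT16. In both copies the ZT16 libraries lay above those of ZT4. Rps3, which also acts in DNA repair, had 340.4, 323 and 286 CPM at ZT4 and 406, 401 and 483 CPM at ZT16. Rps4x, the X-linked form of Rps4, had 135, 140 and 116 CPM at ZT4 and 173, 157 and 191 CPM at ZT16. Their groups did not overlap, whereas Rpl41, the smallest of these proteins, had 246, 237 and 171 CPM at ZT4 and 305, 230.2 and 337 CPM at ZT16, and WT ZT16 replicate 3 lay within the ZT4 range.

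Rpl14 (chr9:120571444-120574654), a large-subunit protein, did not share the pattern. It had 43.0, 44.1 and 45.4 CPM in WT at ZT4 and 45.9, 45.7 and 37.8 CPM at ZT16, and its log2 difference was -0.03 ± 0.10 (SE, adjusted p = 0.83). Without WT ZT16 replicate 5 the difference was 0.06. Rpl27a was equally flat, with 13.8, 14.9 and 14.3 CPM at ZT4 and 13.9, 14.6 and 15.3 CPM at ZT16.

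**Figure D2:**
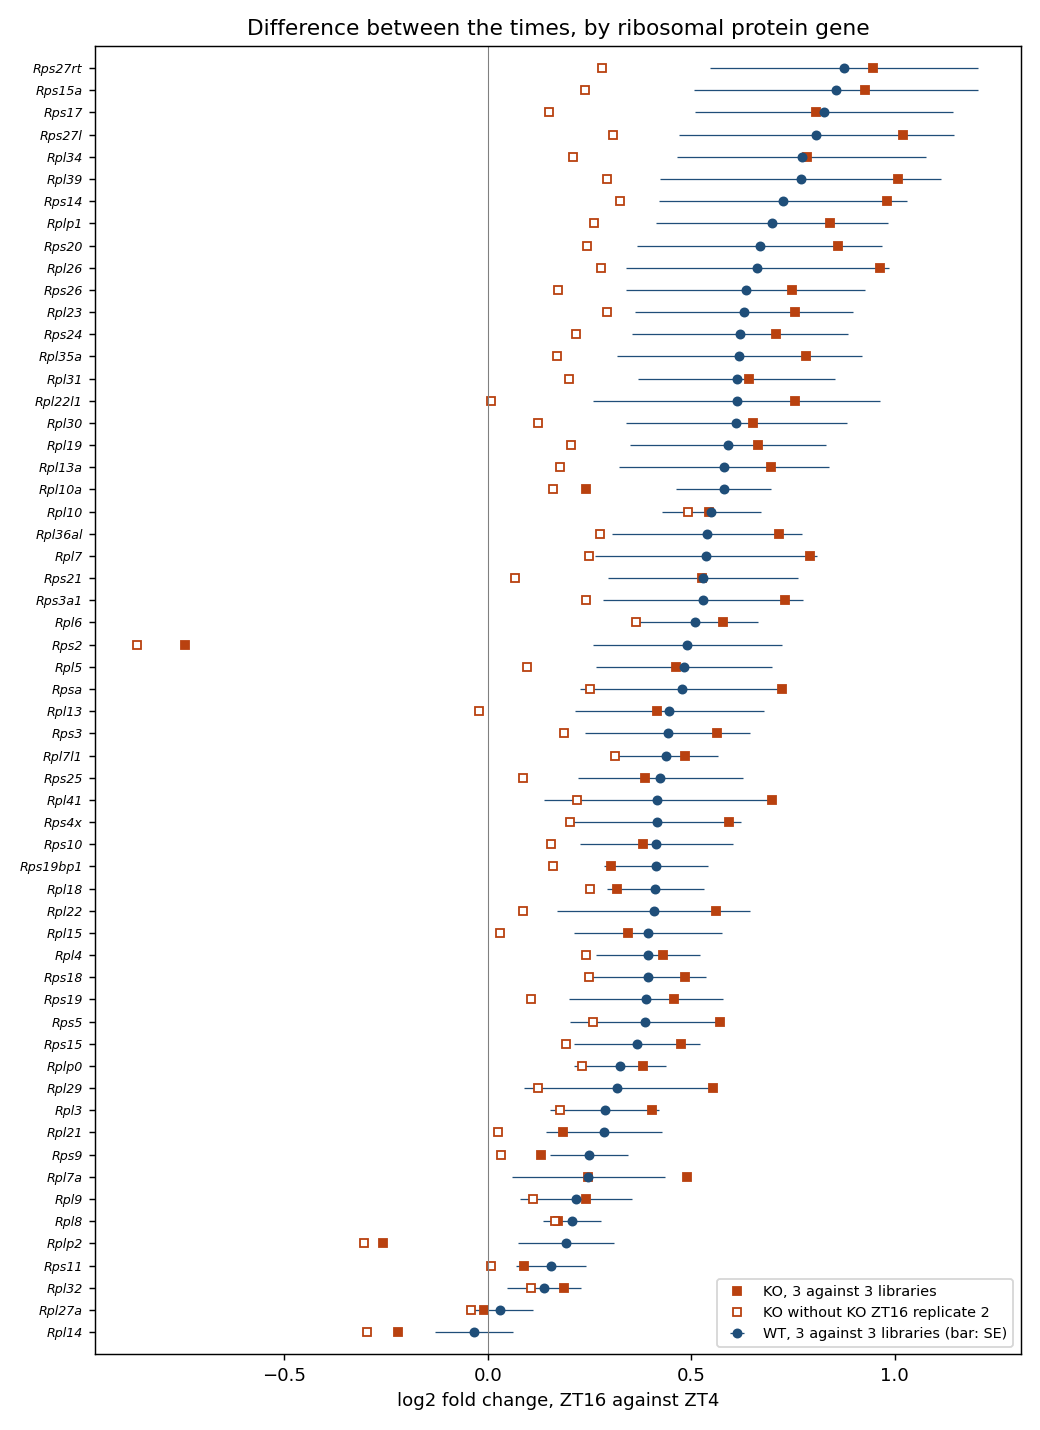
Log2 fold change of ZT16 against ZT4 (x axis) for 58 of the 60 members (y axis) in WT (circles, bar: SE), in KO with 3 libraries a group (filled squares) and in KO without KO ZT16 replicate 2 (open squares). The WT circles lie above 0 for all members shown but Rpl14, and most open squares lie between 0 and the WT circle, with Rps2, Rplp2 and Rpl14 furthest below 0 in KO.

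Library measures moved with the time difference. In WT the mitochondrially encoded share of counts was 16.3% to 17.96% at ZT4 and 18.7% to 22.4% at ZT16, and alignments that were not unique were 34.1% to 36.5% and 38.8% to 41.8%. Within WT ZT16, replicate 5 had the highest median of the members and the highest of both shares. Members as a share of counts on nuclear genes went from 0.534% ± 0.044 to 0.661% ± 0.031 (SD, n = 3). The first principal component of the other tested genes, the main axis along which they vary, held 46.5% of their variance. Its WT values were -18.9 to 2.95 at ZT4 and 25.1 to 48.8 at ZT16. Summed CPM of 4 thick ascending limb markers was 5577 to 6137 at ZT4 and 6419 to 7904 at ZT16 in WT, that of 5 principal cell markers 247 to 307 and 344 to 377, that of 5 podocyte markers 215 to 263 and 166 to 209, and that of 6 fibroblast markers 247 to 320 and 231 to 256. No marker of these lists was under 0.1 CPM in every library. The part of library quality and of cell composition in the result was not tested.

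Over all protein-coding genes, shorter genes tended to have the higher ZT16 level relative to ZT4, with a Spearman correlation of -0.29 between exonic length and the WT log2 difference across 14072 genes, which share the same 6 libraries. Among the 60 members the same correlation was -0.03, and that with GC content was -0.34. Members have a median exonic length of 2030 bases, against 4410 for the tested protein-coding genes. With smooth length and GC terms fitted in each library, the median WT difference of the members was 0.39, against 0.02 for all genes, and 8 members were called higher, against 6.43% of all genes.

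**Figure D3:**
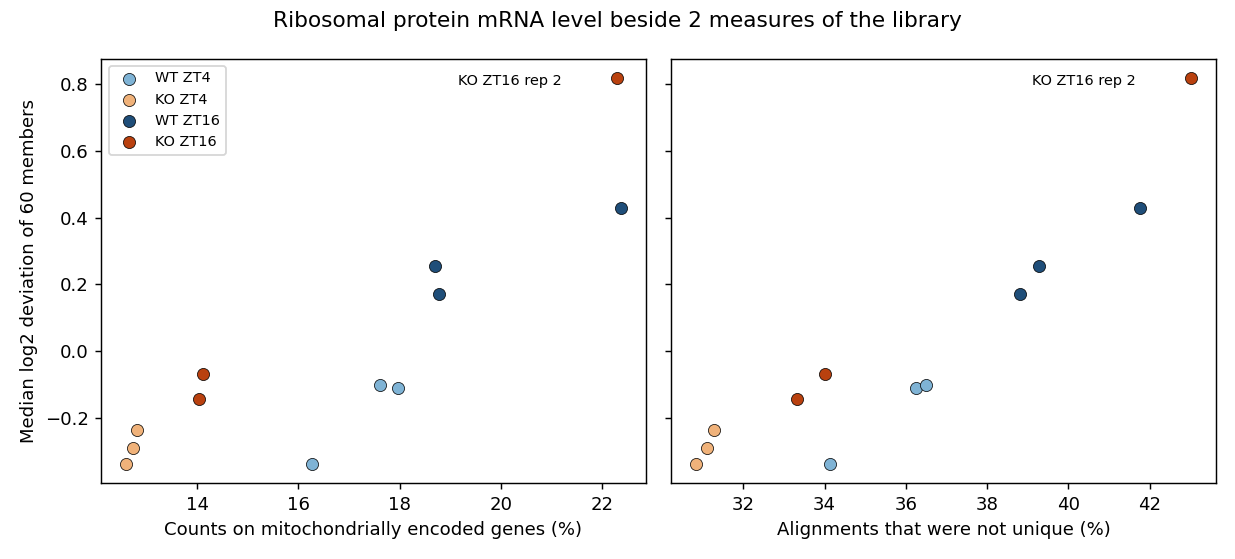
The median log2 deviation of the 60 members (y axis) against the percentage of counts on mitochondrially encoded genes (left) and of alignments that were not unique (right), 1 point per library coloured by group. KO ZT16 replicate 2 is the highest on the y axis, at 0.82, and far to the right of the other KO libraries, at 22.3% and 43.0%.

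In KO kidney the same direction was seen, but its size hung on KO ZT16 replicate 2. With all libraries 56 of 60 members were positive and the median log2 difference between ZT16 and ZT4 was 0.56; without that library 55 were positive and the median was 0.20, against -0.02 for all genes. In 35 of 60 members every ZT16 library lay above every ZT4 library, against 21.1% of all tested genes. Leaving out a ZT16 library cannot lower this count, so its value of 35 without replicate 2, against 26.8%, is no separate check. In Rpl14, Rplp2 and Rps2 every ZT16 library lay below every ZT4 library, against 22.2% of all genes. The mitochondrially encoded share was 12.6% to 12.8% at ZT4 and 14.1% and 14.0% in KO ZT16 replicates 4 and 6. Thick ascending limb markers summed to 4587 to 4740 CPM at ZT4 and 5605 to 7382 CPM at ZT16, and the part of these shifts was not tested.

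With edgeR's test 4 members, Rpl10, Rpl7l1 and Rpl6 among them, rose at ZT16 in KO and none fell, against 5.27% of all genes called higher, and 47 members had an unadjusted p under 0.05, against 36.3% of all genes. The tools differed: on the same libraries DESeq2 called 37 members higher and 1 lower, against 14.4% and 8.54% of all genes, and limma voom called 3 higher, against 4.64%. Rpl10 had 6.81, 5.83 and 6.64 CPM in KO ZT4 replicates 2, 4 and 6 and 9.99, 9.79 and 8.28 CPM in the same-numbered KO ZT16 libraries. Its libraries did not overlap in either genotype, and the KO log2 difference was 0.54 ± 0.12 (SE, adjusted p = 0.022), or 0.49 ± 0.13 (SE, adjusted p = 0.032) without KO ZT16 replicate 2. Rpl7l1, a copy of Rpl7 found in nucleolar preribosomes, had 68.0, 66.8 and 68.6 CPM at ZT4 and 116, 85.4 and 83.7 CPM at ZT16. The difference was 0.48 ± 0.13 (SE, adjusted p = 0.037), and 0.31 (adjusted p = 0.053) without replicate 2.

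Rpl6 had 29.6, 28.5 and 26.5 CPM at ZT4 and 53.4, 36.4 and 36.7 CPM at ZT16 in KO, a log2 difference of 0.58 ± 0.15 (SE, adjusted p = 0.039). In this large-subunit gene the ZT16 libraries were all higher, and KO ZT16 replicate 2 was far above its partners. Without it the difference was 0.36 (adjusted p = 0.062).

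The number of KO members called between the times was not stable. It was 2 without KO ZT16 replicate 2 (Rpl10 higher and Rps2 lower, against 8% of all genes), 34 without KO ZT16 replicate 4, against 10.9% of all genes called higher, 44 without KO ZT16 replicate 6, against 13.4%, and 0 without any 1 of the KO ZT4 libraries, against 1.11% to 2.5%, or in a fit of the 6 KO libraries alone, which called 0.227% of all genes. In the fits without replicate 4 or 6, the group held replicate 2 and 1 other library. With scaling by total counts, the median of the members was 0.28 and that of all genes -0.23. With length and GC terms the KO median was 0.44, and 17 members were called higher and 2 lower, against 11.6% and 6.2% of all genes.

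Rps2 (chr17:24718116-24721929), a small-subunit protein at the mRNA entry tunnel, had fitted time differences of opposite sign in the 2 genotypes. It had 12.3, 12.5 and 6.89 CPM in WT at ZT4 and 18.8, 11.9 and 13.8 CPM at ZT16, and these groups overlapped. In KO it had 11.9, 12.7 and 16.9 CPM at ZT4 and 9.51, 7.52 and 7.70 CPM at ZT16, with every ZT16 library lower. The KO log2 difference was -0.74 ± 0.24 (SE, adjusted p = 0.059), and -0.86 (adjusted p = 0.045) without KO ZT16 replicate 2. The test of the difference between genotypes, an interaction of -1.23 ± 0.33 (SE), gave an adjusted p of 1.0, or 0.19 without that library.

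**Figure D4:**
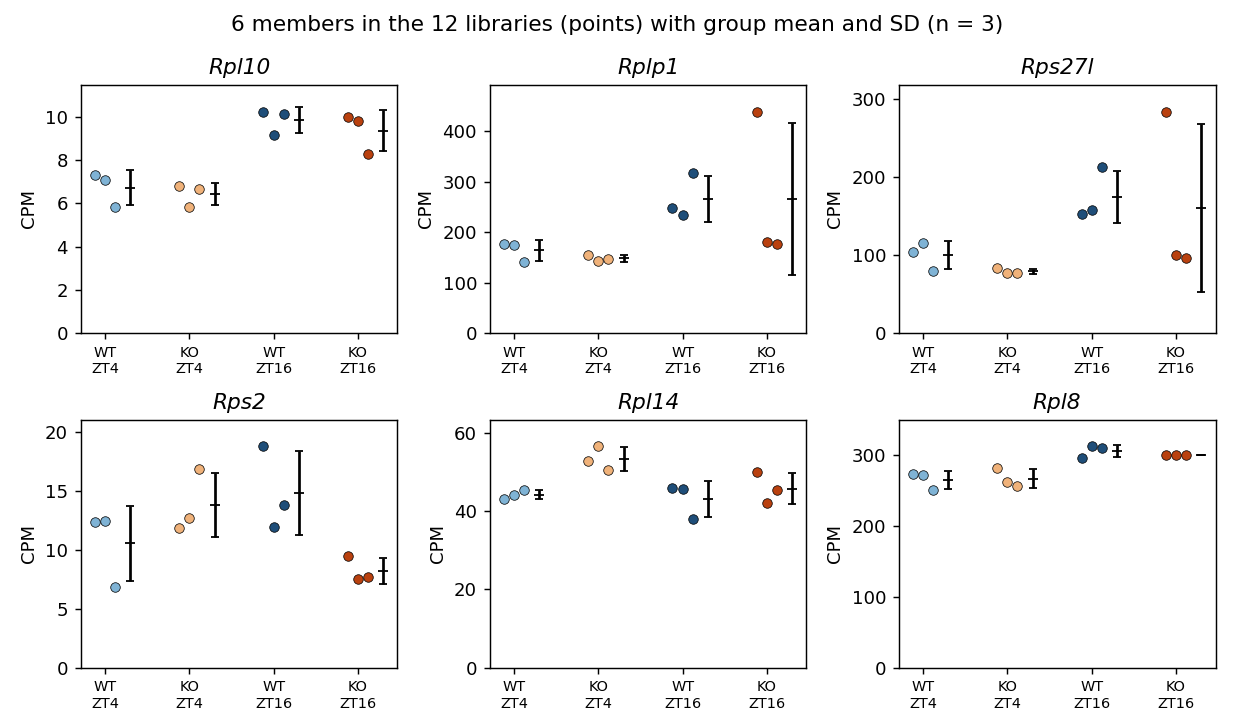
CPM of 6 members in the 12 libraries (points), with the mean and SD of each group of 3 beside them. Rpl10 is higher at ZT16 in both genotypes, and Rplp1 and Rps27l show KO ZT16 replicate 2 far above its 2 partners. Rps2 has its lowest group mean in KO at ZT16. Every KO ZT4 library of Rpl14 lies above the other libraries. Every ZT16 library of Rpl8 lies above every ZT4 library, with group means of 265 and 267 CPM at ZT4 and 306 and 301 CPM at ZT16 in WT and KO.

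No member was called for an interaction of genotype and time. The count was 0 of 60 with edgeR, DESeq2 and limma voom, against 0.0186%, 0.111% and 0.0186% of all genes. In edgeR 2 members had an unadjusted p under 0.05, against 3.34% of all genes. The median interaction of the members was 0.07 with all libraries. Without KO ZT16 replicate 2 it was -0.29, all 60 were negative, 28 had an unadjusted p under 0.05, against 10.2% of all genes, and 0 were called, against 0.0489%. The direction of the shared difference between the genotypes in their time course therefore turned with that 1 library.

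At ZT4 KO against WT gave no called member with edgeR, against 3.29% of all tested genes, and 3 members had an unadjusted p under 0.05, against 18.3%. DESeq2 called 1 member, against 6.57% of all genes, and limma voom 0, against 3.41%. The median log2 difference was -0.11, against 0.00 for all genes, and 13 of 60 were positive. Every KO library lay above every WT library in 4 members (Rpl10a, Rpl14, Rpl27a and Rplp2) and below in 4 others (Rpl19, Rpl36al, Rps18 and Rpsa), against 19.3% and 18.4% of all genes. With scaling by total counts the median of the members was 0.07 and that of all genes 0.18, so the members were 0.11 below all genes either way. The mitochondrially encoded share was 12.6% to 12.8% in KO and 16.3% to 17.96% in WT, and alignments that were not unique were 30.8% to 31.3% and 34.1% to 36.5%. Of 11 lists of cell type markers, summed CPM was higher in every KO library for 2 and lower for 4, among them the thick ascending limb (4587 to 4740 CPM in KO, 5577 to 6137 CPM in WT). Single thick ascending limb markers went both ways: of the 4, 1 had a positive difference. Without KO ZT16 replicate 2, 1 was called higher and 1 lower, against 15.3% of all genes called. The part of these measures was not tested.

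Rplp2 had 8.78, 9.13 and 7.97 CPM in WT and 11.2, 10.9 and 12.5 CPM in KO at ZT4. The 2 groups were apart, and the log2 difference of 0.42 ± 0.12 (SE) had an adjusted p of 0.083. Rpsa had 116, 109 and 88.8 CPM in WT and 81.8, 76.8 and 78.7 CPM in KO. Without KO ZT16 replicate 2, which is not in this comparison, 3 members were called higher (Rpl14, Rpl27a and Rplp2) and 2 lower (Rpl36al and Rpsa), against 15.3% of all genes. A fit of the 6 ZT4 libraries alone called 2 higher and 3 lower, against 18.2% of all genes.

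At ZT16 the answer turned on KO ZT16 replicate 2. With all libraries no member was called by edgeR, against 4.03% of all tested genes, and 2 had an unadjusted p under 0.05, against 16%. DESeq2 called 1, against 6.24% of all genes, and limma voom 0, against 4.04%, and the median log2 difference between KO and WT was -0.02. Without that library, which leaves 2 KO libraries, 44 of 60 members fell in KO and none rose, against 16.5% of all genes called lower, and the median was -0.42, against -0.02 for all genes. Among the copies, Rpl22l1 had 35.1 CPM in that library and 12.4 and 10.7 CPM in replicates 4 and 6. KO ZT16 replicates 4 and 6 both lay below every WT ZT16 library in 46 of 60 members, against 28.3% of all genes; with replicate 2 included that held for Rps2 alone, against 7.95%. Without KO ZT16 replicate 4 or 6 no member was called, against 2.38% and 2.35% of all genes.

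Other measures separated the same libraries at ZT16. Without KO ZT16 replicate 2 the mitochondrially encoded share was 14.0% and 14.1% in KO and 18.7% to 22.4% in WT, and alignments that were not unique were 33.3% and 34.0% in KO and 38.8% to 41.8% in WT. Of the 11 marker lists, summed CPM was higher in both KO libraries than in every WT library for 3 and lower for 5. Thick ascending limb markers summed to 5605 and 5817 CPM in KO and 6419 to 7904 CPM in WT, and principal cell markers to 278 and 316 CPM against 344 to 377 CPM. Single principal cell markers went both ways: of the 5, 2 were called higher and 2 lower in KO without replicate 2, against 31.2% of all genes called. So did the 7 proximal tubule markers, although their sum was among the 3 that were higher. Of these 7, 2 had a positive difference, 2 were called higher and 1 lower. Distal convoluted tubule markers (3 genes) summed to 746 and 772 CPM in KO and 464 to 580 CPM in WT. With replicate 2 included, 2 lists were lower in every KO library and 0 higher. The part of these measures in the lower levels in KO was not tested.

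Rps27l had 153, 158 and 213 CPM in WT ZT16 replicates 1, 3 and 5 and 284, 99.8 and 96.2 CPM in KO ZT16 replicates 2, 4 and 6. Replicate 2 was above, and both its partners below, every WT library, so that the log2 difference of KO against WT was -0.13 ± 0.33 (SE, adjusted p = 0.90) with it and -0.84 ± 0.15 (SE, adjusted p = 0.0014) without it. Rpsa had 126, 136 and 175 CPM in WT and 203, 92.2 and 96.8 CPM in KO. Its log2 difference of -0.16 with all libraries was -0.63 without KO ZT16 replicate 2 (adjusted p = 0.0030).

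The gene with the lowest fitted value at ZT16, Rps2, did not depend on that library for its direction. Its 3 KO libraries (9.51, 7.52 and 7.70 CPM) were all below the 3 WT libraries (18.8, 11.9 and 13.8 CPM), at a log2 difference of -0.85 ± 0.24 (SE, adjusted p = 0.073), and -0.97 ± 0.25 (SE, adjusted p = 0.0097) without it. Rpl8, a large-subunit protein near the peptidyl transferase centre, had 296, 313 and 310 CPM in WT and 301, 300 and 301 CPM in KO, and KO ZT16 replicate 2 did not stand apart there. The members not called without that library were Rpl8 and 15 others, among them Rpl10, Rpl10a, Rpl14, Rpl27a and Rplp2.

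**Figure D5:**
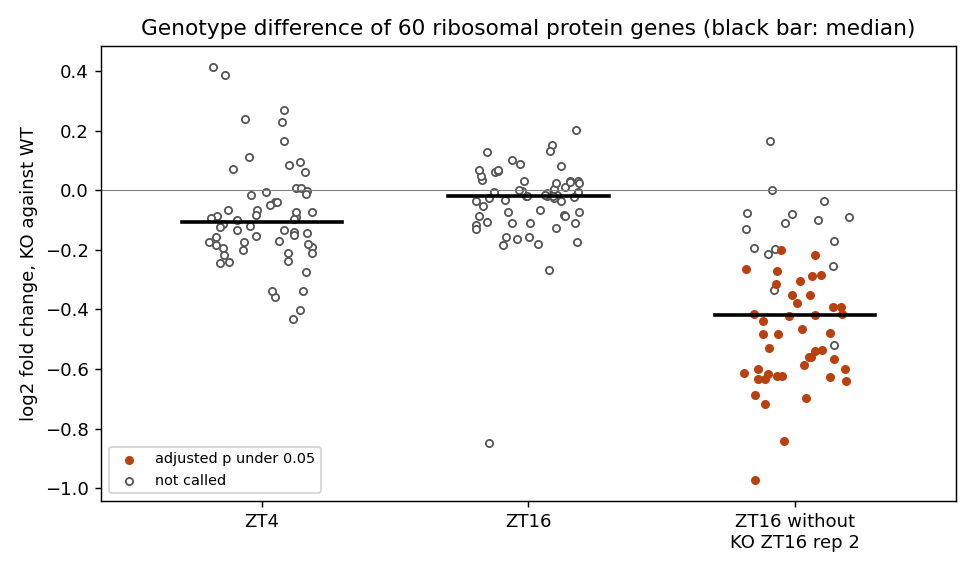
Log2 fold change of KO against WT (y axis) for the 60 members at ZT4, at ZT16 and at ZT16 without KO ZT16 replicate 2, with the median as a black bar and filled points for an adjusted p under 0.05. The medians are -0.11, -0.02 and -0.42, and filled points occur only in the last column, where 44 members are called.

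Averaged over both times, Rpl27a was the member called with all libraries. It had 13.8, 14.9 and 14.3 CPM in WT and 17.8, 16.7 and 16.3 CPM in KO at ZT4, and 13.9, 14.6 and 15.3 CPM in WT and 17.4, 16.3 and 16.7 CPM in KO at ZT16. The KO libraries were all above the WT libraries at each time, which at ZT16 held for no other member and for 7.92% of all genes, by a log2 difference of 0.22 ± 0.06 (SE, adjusted p = 0.028), and KO ZT16 replicate 2 lay near its partners. Rpl27a (chr7:109519147-109522367) encodes a large-subunit protein. Of all tested genes 11.4% were called in this comparison, so 1 of 60 is below the background. Leaving out any 1 library gave 0 called members for 9 of the libraries, 1 for WT ZT4 replicate 3 and WT ZT16 replicate 5, with 6.86% to 10.4% of all genes called, and 39 for KO ZT16 replicate 2 (1 higher and 38 lower, at a median of -0.26, against 42.4% of all genes called).

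The pseudogene copies had medians like those of the members. For the 39 copies with at least 5 CPM the median WT difference between ZT16 and ZT4 was 0.49 and 35 were positive, and in KO the median was 0.60, or 0.21 without KO ZT16 replicate 2. Between genotypes at ZT16, 27 of the 39 were called lower in KO without that library, against 16.5% of all genes. With it 0 were called, against 4.03% of all genes. Members, copies and the 26 protein-coding genes under the minimum together took 0.606% ± 0.044 (SD, n = 3) of counts in WT at ZT4 and 0.728% ± 0.018 (SD, n = 3) at ZT16.

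Among ribosomal proteins outside the name rule were Rack1, which docks kinases on the small subunit, and Fau, which encodes a fusion of a ubiquitin-like domain to a ribosomal protein. Rack1 had 426, 399 and 337 CPM in WT at ZT4 and 517, 500 and 590 CPM at ZT16, without overlap, at a log2 difference of 0.47 ± 0.18 (SE, adjusted p = 0.12). In KO it had 353, 349 and 345 CPM at ZT4 and 708, 408 and 423 CPM at ZT16, again with KO ZT16 replicate 2 highest. Fau had a mean of only 2.08 CPM in WT at ZT4 and is not described further.

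Genes that assemble ribosomes moved in the same direction in part. Of 28 listed assembly genes, 4 rose at ZT16 in WT and 7 in KO and none fell, against 2.87% and 5.27% of all genes called higher. Their medians were 0.16 and 0.20. Without KO ZT16 replicate 2, 11 rose and 1 fell in WT, against 33.5% of all genes called in either direction. In KO 9 rose without that library, against 8% called in either direction. Nop58, a core protein of box C/D snoRNPs that guide rRNA methylation, rose by a log2 difference of 0.52 ± 0.11 in WT and 0.48 ± 0.11 in KO (SE, adjusted p = 0.017 and 0.022). Nop2, which methylates rRNA of the large subunit, rose by 0.38 ± 0.08 in WT and 0.57 ± 0.08 in KO (SE, adjusted p = 0.024 and 0.0051). At ZT4 Nop2 was lower in KO than in WT, by -0.35 ± 0.08 (SE, adjusted p = 0.044). Without KO ZT16 replicate 2 the KO difference of Nop2 was 0.62.

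Other translation genes with TOP-type mRNAs had calls in both directions. Of 19 listed, Tpt1, translationally controlled tumour protein, rose at ZT16 in WT by 0.78 ± 0.15 (SE, adjusted p = 0.012). Eif4b, which helps the helicase of initiation, fell by 0.30 (adjusted p = 0.026), and the median was 0.21. Of all genes, 6.5% were called in either direction in WT and 10.5% in KO. Without KO ZT16 replicate 2 these shares were 33.5% and 8%, and 9 of the 19 rose and 1 fell in WT. Of 24 other initiation factors none was called in WT, 6 rose in KO, and the medians were 0.12 and 0.19. Without that library 9 rose and 1 fell in WT, and 4 rose in KO. Among 18 genes of mTOR and MYC control none rose with all libraries. Deptor, an inhibitor of mTOR, fell at ZT16 by 0.50 in WT (adjusted p = 0.048) and by 0.56 in KO (adjusted p = 0.029). Without KO ZT16 replicate 2, 2 of the 18 rose in WT, against 17.5% of all genes called higher, and 5 fell.

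Gene groups of other machines of the cell had positive medians too. The median WT log2 difference between ZT16 and ZT4 was 0.28 for 76 mitochondrial ribosomal protein genes, 0.30 for 39 proteasome subunits, 0.45 for 82 nuclear-encoded respiratory chain subunits and 0.49 for 11 mitochondrially encoded mRNAs, beside 0.44 for the cytosolic ribosomal proteins. With length and GC terms these medians were 0.23, 0.15, 0.29 and 0.01, beside 0.39, and 6 of the 11 mitochondrially encoded mRNAs were positive. With all libraries 0 of the 76, 0 of the 39, 0 of the 82 and 1 of the 11 were called in WT, against 6.5% of all genes. Without KO ZT16 replicate 2, 46, 22, 62 and 6 rose, against 17.5% of all genes called higher. In KO without KO ZT16 replicate 2 the medians were 0.18, 0.20, 0.14 and 0.36, beside 0.20. Between genotypes at ZT16 without that library they were -0.26, -0.41, -0.48 and -0.82, beside -0.42. With that library the median of the nuclear-encoded respiratory chain genes was 0.53 between the times in KO and -0.11 between genotypes at ZT16. No test between the gene groups was made.

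Members with and without a sequence feature were set side by side, and no test between them was made. The 23 with a tract within 5 bases of a start had a median WT difference of 0.58 (range -0.03 to 0.88) and the 22 without one 0.44 (range 0.22 to 0.66). In KO without KO ZT16 replicate 2 the medians were 0.18 and 0.21. The 6 members with CACGTG had a WT median of 0.59 and the 39 without it 0.45, and in KO without that library 0.19 and 0.20. The 19 members with CCGGAAG had a WT median of 0.51 and the 26 without it 0.44, and in KO without that library 0.20 and 0.19. The ranges overlapped throughout. Rpl14, which has both the tract at its start and the E-box, was the member with the lowest WT difference, and Rps15a, with the tract and no E-box in its window, was among those with the highest.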

How the data were processed

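Per the labels' protocols, 500 ng of RNA per kidney library went into TruSeq stranded mRNA preparation. The deposited values are raw counts of reads per gene. Per the submitters' processing notes, the authors used cutadapt 1.2.1, TopHat2 2.0.9, HTSeq 0.5.4p3 and GRCm38. How HTSeq treated strand and overlaps, and with which gene annotation, is not given in the sources used here, so overlapping genes cannot be told apart.

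Lines for unassigned reads were dropped before scaling: 30.8% to 43.0% of a library was not unique, 3.50% to 5.96% hit no feature and 0.411% to 0.534% was ambiguous. Gene IDs were named with GENCODE M21 on GRCm38 (37607 of 38924), which also gave coordinates, lengths and overlaps. Genes passing filterByExpr (16150) were tested by quasi-likelihood with edgeR 4.0.16 (R 4.3.3), TMM scaling and 1 fit of 12 libraries with 8 residual degrees of freedom. P-values were adjusted by Benjamini-Hochberg over all tested genes, called at 0.05. CPM use TMM-scaled library sizes, and log2 CPM a prior count of 2. The 5 CPM minimum instead used total gene counts. So did the 12-library mean CPM given for pseudogenes, their parent genes and matching genes near or under the minimum. On simulated data, for KO against WT at ZT4, the test recovered 58% of genes changed 1.5-fold and 93% of genes changed 2-fold. That simulation drew each gene independently and held no library that stood apart, unlike these data. DESeq2 1.42.0, limma voom 3.58.1, length and GC offsets by mgcv 1.9.3, other scaling and filters, left-out libraries and a replicate block were alternatives.

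No library pair of a group agreed within sampling noise by chi-square (lowest 4.71 per degree of freedom), so each library was counted. The members, gene lists and tests were chosen with earlier results of these data known. Named genes were a set of well-known members, up to 4 called members per direction and comparison and up to 3 called genes per direction of other lists, by smallest adjusted p, plus those said to be chosen by their values. Some genes are not reported here.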

Additional observations from a re-analysis of the deposited data

How the results depend on the processing

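Of 46 results, 4 ratios of shares of counts moved by less than the replicate spread under their alternatives, and medians of the members did so in 111 of 114 cases. The exceptions were without KO ZT16 replicate 2. For the medians that spread was a pooled SD of 0.28, which this library itself widened. The SD was 0.54 in the KO ZT16 group and 0.05 to 0.13 in the other groups. Medians that changed sign thus counted as unmoved, as between genotypes at ZT4 (-0.11, or 0.07 with total counts). So did the move from -0.07 to -0.26 over both times without KO ZT16 replicate 2. Over the left-out libraries the median ranged from -0.42 to 0.14 between genotypes at ZT16, from 0.20 to 0.71 between the times in KO and from -0.29 to 0.23 for the interaction. The number of members called ranged from 0 to 5 between genotypes at ZT4, from 0 to 44 at ZT16, from 0 to 39 averaged over both, from 0 to 50 between the times in WT and from 0 to 44 in KO. In the same order, the share of all genes called ranged over left-out libraries from 1.4% to 15.3%, 2.32% to 31.2%, 6.86% to 42.4%, 1.34% to 33.5% and 1.11% to 22.2%. DESeq2 called 1 between genotypes at ZT4, 1 at ZT16, 8 between the times in WT and 38 in KO, against 6.57%, 6.24%, 13.3% and 22.9% of all genes. Length and GC terms gave 2, 1 and 2 (ZT4, ZT16 and both), against 6.09%, 6.23% and 15.9%. They gave 8 and 19 (time in WT and KO), against 11.1% and 17.8%. Only the libraries compared gave 5 at ZT4, 46 for time in WT and 0 in KO, against 18.2%, 22.8% and 0.227%. No filter on low counts gave 1 at ZT16, 0 over both and 11 for time in KO, against 2.57%, 6.97% and 7.22%. Total counts gave 2 over both, and 0 and 1 for time in WT and KO, against 12.4%, 4.33% and 6.53%. RLE scaling gave 7 in KO, against 11%. Leaving out mitochondrially encoded genes, copies or overlapping members, chosen after seeing the data, kept each count within 1.5 times and each median within the replicate spread. The cause was not tested, except that left-out libraries leave fewer samples. Same-numbered libraries did not deviate together (correlations -0.27 to 0.05, and -0.19 to 0.22 for other pairs). With 3 libraries a group this cannot decide whether the numbers mark pairs, which the labels do not say. The replicate block called 0 members in WT and 0 in KO, against 1.42% and 1.17% of all genes. With length and GC terms it called 4 and 5, against 5.13% and 8.13%. For single genes, the call was lost in 96 and gained in 29 cases, and 8 reversed. Rpl14 in WT ranged from -0.077 to 0.059 over left-out libraries, and at ZT16 Rps27l ranged from -0.84 to 0.13 and Rpsa from -0.63 to 0.042. Arntl at ZT4 ranged from -0.19 to 0.10, and was 0.10 with total counts. Reads that were not unique limit the levels of all members.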
